A study of Mus musculus with 15 samples.

Results

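The enzymes that turn farnesyl diphosphate into squalene and squalene into cholesterol were followed as 9 genes, Fdft1, Sqle, Lss, Cyp51, Msmo1, Nsdhl, Hsd17b7, Sc5d and Dhcr7, taken by symbol in pathway order. All 9 stood on 1 row each among the 24965 genes of the authors' deposited table, and all 9 were among its 13335 genes with an adjusted p, called tested genes here. RNA came from livers of male C57BL/6J mice, 9 weeks old, in which both Gata4 alleles were floxed in every group. Gata4 encodes a zinc finger transcription factor. At 8 weeks of age the mice were given adeno-associated virus of serotype 8, either AAV8-Tbg-Cre, whose Tbg promoter is active in hepatocytes (labelled Gata4LKO, called knockout below), or an empty AAV8 (control), and livers were taken 7 days later. The table compared fasted livers, 4 labelled knockout with 4 labelled control, after 12 h without food. The model behind it also held 4 control and 3 knockout livers of mice that fasted for 12 h and then ate for 12 h from a sucrose-rich diet (69% sucrose, 10% fat). The table gives 1 estimate per gene and no value per liver, so levels in single livers and in refed livers were not analysed here. The titles share a number within each group, whose meaning is not stated, so any cage, litter or day that a group shared cannot be told apart from its label. Control livers received no Cre, so the presence of Cre cannot be told apart from its action on Gata4.

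In the sterol pathway, squalene synthase joins a pair of farnesyl diphosphates, squalene epoxidase adds oxygen, and lanosterol synthase folds the chain into the first sterol. Lanosterol then loses its extra methyl groups and has its double bonds moved and reduced until cholesterol is left. The liver is a main site of this synthesis. The genes are textbook targets of SREBP2, a membrane-bound transcription factor that the escort protein SCAP carries out of the endoplasmic reticulum when sterols are low and that INSIG proteins hold back when sterols are high.

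The targeted gene and the reading of the table come first. Gata4 itself had a log2 fold change of 0.31 ± 0.15 (SE, the authors' deposited table), with a 95% interval from 0.03 to 0.60, and was not called (adjusted p 0.361, DESeq2). The labels do not say which part of the gene is floxed, so its total count cannot test the deletion, and livers are named by their labels throughout. The header names no groups. Genes with a single read showed that the estimate compares 2 groups of 4 within an interaction model whose reference is fasted control livers, and this leaves either the genotype difference of fasted mice or the feeding difference of control mice. The first was taken because the result is named for genotype, and every direction here rests on that choice. The gluconeogenic gene Pck1, which feeding controls, had a log2 fold change of 0.01 ± 0.82 (SE, the authors' deposited table), with a wide 95% interval from -1.59 to 1.61, and was chosen after its value was seen.

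In fasted livers labelled knockout, all 9 enzymes had negative estimates, and those that passed the threshold were the first 5 in the order listed. No difference between called and uncalled enzymes was tested, and the intervals of Fdft1, Lss and Cyp51 overlapped with those of every other member. Of the 9, 5 were called lower and 0 higher in the authors' deposited table at an adjusted p under 0.05 (DESeq2 Wald test, Benjamini-Hochberg adjustment), against 1.60% called lower and 0.585% called higher among all tested genes, or 2.19% in either direction. The 5 that fell were the first 5 of the 9 as listed, Fdft1, Sqle, Lss, Cyp51 and Msmo1. Their levels lay between 34.0% and 58.2% below control. The list leaves out other post-squalene genes, Tm7sf2 and Lbr among them. They are given below and were not called, so the run of called genes describes this list and not the whole pathway. Nsdhl, Hsd17b7, Sc5d and Dhcr7, the rest of the 9, had negative estimates and were not called. The median log2 fold change of the 9 was -0.60, with a range from -1.26 to -0.23, while the median over all tested genes was 0.01 and 6412 of 13335 estimates were negative. Before adjustment, 8 of 9 had a p under 0.05 in the lower direction, against 6.21% of tested genes. These genes were put together with earlier results of this table known, so their counts describe them and test nothing about the pathway as a whole. In RNA of whole liver, fewer cells of a type and less RNA per cell cannot be told apart.

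**Figure D1:**
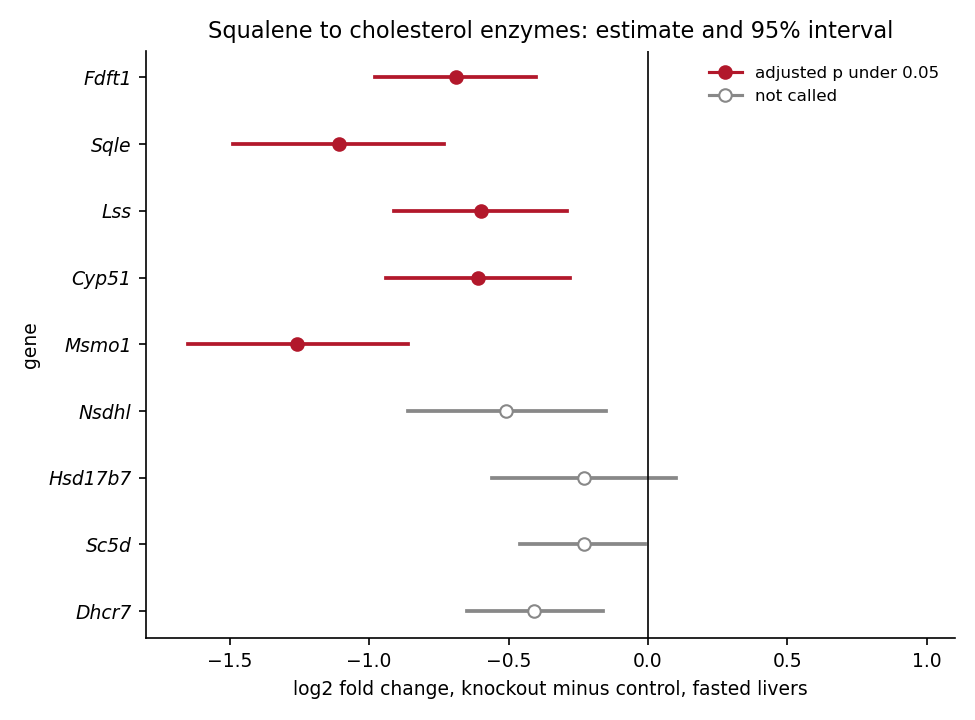
Log2 fold change of each gene (points) with its 95% interval (lines), livers labelled knockout minus control, fasted; filled red points have an adjusted p under 0.05. The 9 enzymes stand in pathway order, with estimates from -1.26 for Msmo1 to -0.23 for Hsd17b7 and Sc5d, and the 5 filled points are the first 5 of the 9.

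Promoters are shown because these genes share regulators of sterol synthesis, and the letters let the matches be read in place. RefSeq windows on GRCm38.p6 (250 bases before to 50 after a start) were at hand for 7 of the 9 genes, with 3 starts for Dhcr7, hence 9 windows. Fdft1 and Sqle had no entry. Exact matches were sought on both strands to CCAAT (NF-Y), GGGCGG (the GC box of Sp1), CACGTG (an E-box), TCACNCCAC (a sterol regulatory element-like form) and GATA. A GATA match was AGATAA or its variant AGATAG, or else TGATAA or its variant TGATAG. No 2 matches shared a base. Bases are given on the gene's strand, 5′ to 3′, with every match in capitals on either strand. Lss lies on the plus strand and the other 3 on the minus strand. The stretches of Lss and Cyp51 stop where an annotated exon begins, and that of Sc5d runs up to its RefSeq start. The last 3 capitals of Sc5d open a GC box that runs past the start.
Lss (chr10:76531355-76531587): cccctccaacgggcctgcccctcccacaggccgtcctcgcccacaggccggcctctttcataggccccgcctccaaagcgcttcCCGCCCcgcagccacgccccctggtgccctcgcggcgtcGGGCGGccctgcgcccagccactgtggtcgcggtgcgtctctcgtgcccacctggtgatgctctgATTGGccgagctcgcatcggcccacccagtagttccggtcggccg
Cyp51 (chr5:4104747-4104947): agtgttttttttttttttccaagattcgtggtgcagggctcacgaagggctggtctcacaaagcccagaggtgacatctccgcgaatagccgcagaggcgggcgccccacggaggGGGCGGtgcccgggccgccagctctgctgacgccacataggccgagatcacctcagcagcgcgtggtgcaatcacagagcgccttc
Sc5d (chr9:42264301-42264550): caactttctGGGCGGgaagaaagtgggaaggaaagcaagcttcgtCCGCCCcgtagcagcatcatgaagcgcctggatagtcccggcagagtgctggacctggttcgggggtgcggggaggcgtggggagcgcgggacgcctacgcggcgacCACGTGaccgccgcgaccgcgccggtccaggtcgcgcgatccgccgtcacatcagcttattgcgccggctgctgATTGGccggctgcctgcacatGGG
Msmo1 (chr8:64733627-64733656): aggcaGGGCGGgagtgGGGCGGaCCAATta

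Msmo1, the enzyme with the lowest estimate, had 2 GC boxes and a CCAAT within 30 bases, from 78 to 49 bases before its RefSeq start, as printed. A GENCODE M21 transcript of Msmo1 begins further upstream, so this stretch is a promoter under the RefSeq start alone. Msmo1 held 3 CCAAT matches in all, at positions -160, -96 and -55 from the start. Lss had CCAAT on the opposite strand, which reads ATTGG as printed, 62 bases before the start. The CCAAT of Cyp51, 29 bases before its start, lies past the end of the printed stretch.

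CCAAT and the GC box were found both in members that fell and in members that were not called. CCAAT was in 7 of 9 windows, with at least 1 in each of the 7 genes, and the GC box in 8 of 9, again in each of the 7 genes. Over all 32851 RefSeq windows of the same length, 37.4% held CCAAT and 35.7% the GC box. In G and C content, 8 of the 9 windows lay above the median window, with a range from 48.7% to 71.0% against 52.7%, and the part of this in the matches was not tested. An E-box stood in 1 window each of Hsd17b7, Sc5d and Dhcr7, none of which was called, against 7.15% of all windows. A GATA match stood in the window of Hsd17b7 and in 2 overlapping windows of Dhcr7, against 29.8% of all windows, and in none of the windows of Lss, Cyp51, Msmo1, Nsdhl and Sc5d. TCACNCCAC was in 0 of 9 windows and in 1.24% of all windows, which says only that these letters were not in these stretches. A match is a description of letters and shows no binding.

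**Figure D2:**
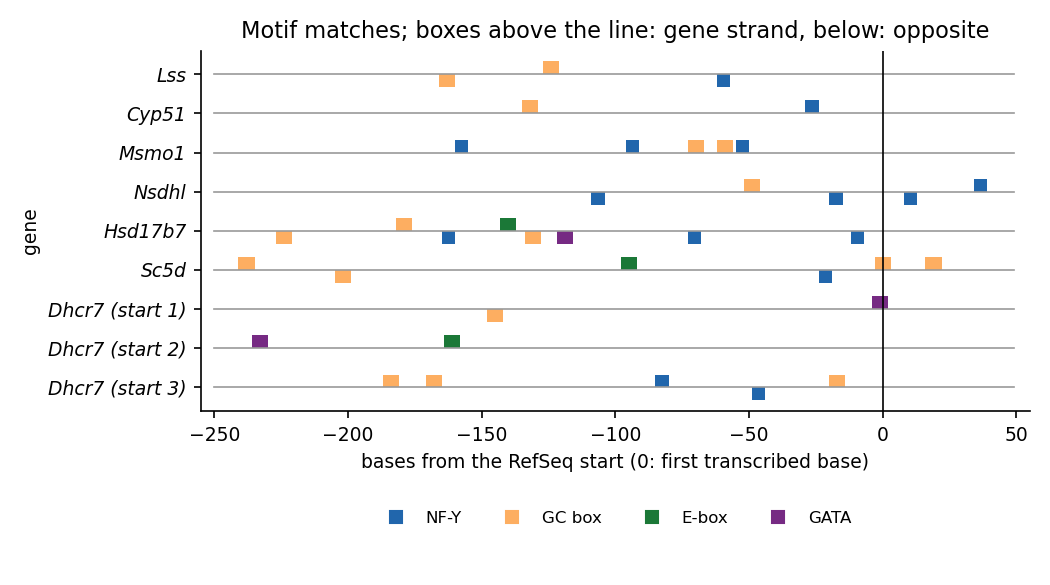
Position of motif matches, in bases from the RefSeq start, in the windows of 7 genes (3 starts for Dhcr7); boxes above a line match the gene's strand and boxes below it the opposite strand. CCAAT (NF-Y, blue) and the GC box (orange) appear in all 7 genes, an E-box (green) in 3 and a GATA match (purple) in 2.

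Fdft1 encodes squalene synthase, the enzyme that commits farnesyl diphosphate to sterols (ENSMUSG00000021273, chromosome 14, 63145150 to 63179578, minus strand, mm10). Its log2 fold change was -0.69 ± 0.15 (SE, the authors' deposited table), with a mean of 2656 normalized counts and an adjusted p of 6.46e-04 (DESeq2). Its RNA stood at 62.0% of the control level, with a 95% interval from 50.7% to 75.9%. Gata4 is a close neighbour of Fdft1, on the same strand and 19.3 kb away, with Neil2, a DNA glycosylase gene, between them. Neil2 had a log2 fold change of 0.36 ± 0.35 (SE, the authors' deposited table) and missed the threshold. The 3′ end of Fdft1 overlaps that of Ctsb, the cathepsin B gene on the opposite strand, by 774 bases. Ctsb was the more abundant of the 2, at 6037 normalized counts, and its log2 fold change was 0.11 ± 0.07 (SE, the authors' deposited table). The libraries were stranded per the labels but the strand setting of the counting is not given in the sources used here, so the split of reads between Fdft1 and Ctsb is uncertain over that stretch.

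Sqle encodes squalene epoxidase, a rate-limiting enzyme of the sterol arm whose protein is also degraded when sterols are high (ENSMUSG00000022351, chromosome 15, 59315077 to 59331192, plus strand). Its log2 fold change of -1.11 ± 0.19 (SE, the authors' deposited table) ranked 37th of the 13335 tested genes by p (adjusted p 3.27e-06, DESeq2). That is 46.3% of the control level, with a 95% interval from 35.6% to 60.2%, at a mean of 2117 normalized counts. Lss encodes lanosterol synthase, the cyclase (ENSMUSG00000033105, chromosome 10, 76531588 to 76557138, plus strand), and fell as well. In the authors' deposited table its log2 fold change was -0.60 ± 0.16 (SE), with an adjusted p of 0.0112 (DESeq2) and a mean of 2125 normalized counts. Lss stood at 66.0% of control, with a 95% interval from 53.3% to 81.8%. An antisense gene, 4930483K19Rik, overlaps Lss with a mean of only 3.66 normalized counts.

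Cyp51 encodes the cytochrome P450 that removes the first methyl group from lanosterol (ENSMUSG00000001467, chromosome 5, 4081145 to 4104746, minus strand). Its log2 fold change was -0.61 ± 0.17 (SE, the authors' deposited table), at a mean of 5104 normalized counts and an adjusted p of 0.0198 (DESeq2). Cyp51 stood at 65.7% of control, with a 95% interval from 52.3% to 82.5%, close to Lss and Fdft1. Cyp51 overlaps Akap9, an anchoring protein gene on the opposite strand, whose own log2 fold change was -0.09 ± 0.09 (SE, the authors' deposited table).

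Msmo1, Nsdhl and Hsd17b7 encode the complex that strips the other methyl groups, by oxidation, decarboxylation and reduction in that order, and 1 of these 3 genes, Msmo1, was called. Msmo1, the methylsterol oxidase (ENSMUSG00000031604, chromosome 8, 64718139 to 64733792, minus strand), had the lowest estimate of the 9. Its log2 fold change (the authors' deposited table) was -1.26 ± 0.20 (SE), ranked 22nd by p among tested genes, with an adjusted p of 2.06e-07 (DESeq2). Its RNA, from the gene whose paired GC boxes are printed above, stood at 41.8% of control, with a 95% interval from 31.9% to 54.9%, at a mean of 3458 normalized counts. Nsdhl, the decarboxylating dehydrogenase of the next reaction (ENSMUSG00000031349, chromosome X, 72918557 to 72958514, plus strand), had a log2 fold change of -0.51 ± 0.18 (SE, the authors' deposited table), with a 95% interval from -0.86 to -0.15, and missed the threshold. Its unadjusted p was 0.00511 and its adjusted p 0.132 (DESeq2), and it stood at 70.4% of the control level. Hsd17b7, the ketosteroid reductase that ends this cycle (ENSMUSG00000026675, chromosome 1, 169949535 to 169969241, minus strand), had a log2 fold change of -0.23 ± 0.17 (SE, the authors' deposited table). Hsd17b7 was not called (adjusted p 0.686, DESeq2), and its interval, from 68.0% to 107% of control, includes the estimate of Nsdhl as well as no change.

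Sc5d and Dhcr7 act last among the 9. Sc5d encodes the desaturase that acts on lathosterol (ENSMUSG00000032018, chromosome 9, 42251595 to 42264256, minus strand). It was the most abundant of the 9, at 10615 normalized counts, with a log2 fold change of -0.23 ± 0.12 (SE, the authors' deposited table) and an adjusted p of 0.420 (DESeq2). Its level was 85.0% of control, with a 95% interval from 72.6% to 99.6%. Dhcr7 encodes the reductase that gives cholesterol in the lathosterol branch (ENSMUSG00000058454, chromosome 7, 143823145 to 143848410, plus strand). Its log2 fold change was -0.41 ± 0.13 (SE, the authors' deposited table), at 75.4% of control with a 95% interval from 63.6% to 89.5% and a mean of 2759 normalized counts. Dhcr7 lay just outside the threshold, with an adjusted p of 0.0533 (DESeq2). It was called in 4 of 11 alternative treatments of the table, among them both that shifted fold changes to the median of other genes. Cyp51, with an adjusted p of 0.0198 (DESeq2), was the member just inside.

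Calls on Fdft1, Lss and Cyp51 depended on how the Wald statistic was read. Against a t distribution with 11 degrees of freedom, in place of the normal one, their adjusted p were 0.129, 0.227 and 0.265, and Sqle and Msmo1 were the 2 members still called, both lower. At that setting 0.232% of tested genes were called lower. A test against a change of at most 0.25 on the log2 scale also left Sqle and Msmo1, with 0.277% of tested genes called lower. Holm's adjustment and a threshold of 0.01 left Fdft1, Sqle and Msmo1, with 0.450% and 0.967% of tested genes called lower.

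Among the 36 pairs of enzymes, 7 had 95% intervals that did not overlap, and each of the 7 set Sqle or Msmo1 against a later enzyme. Sqle stood apart from Hsd17b7, Sc5d and Dhcr7, with estimates lower by 0.88, 0.88 and 0.70 on the log2 scale. Msmo1 stood apart from Nsdhl, Hsd17b7, Sc5d and Dhcr7. Fdft1, Lss and Cyp51 overlapped with every other member. The estimates come from the same livers and their covariance is not in the table, so no difference between 2 enzymes was tested.

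**Figure D3:**
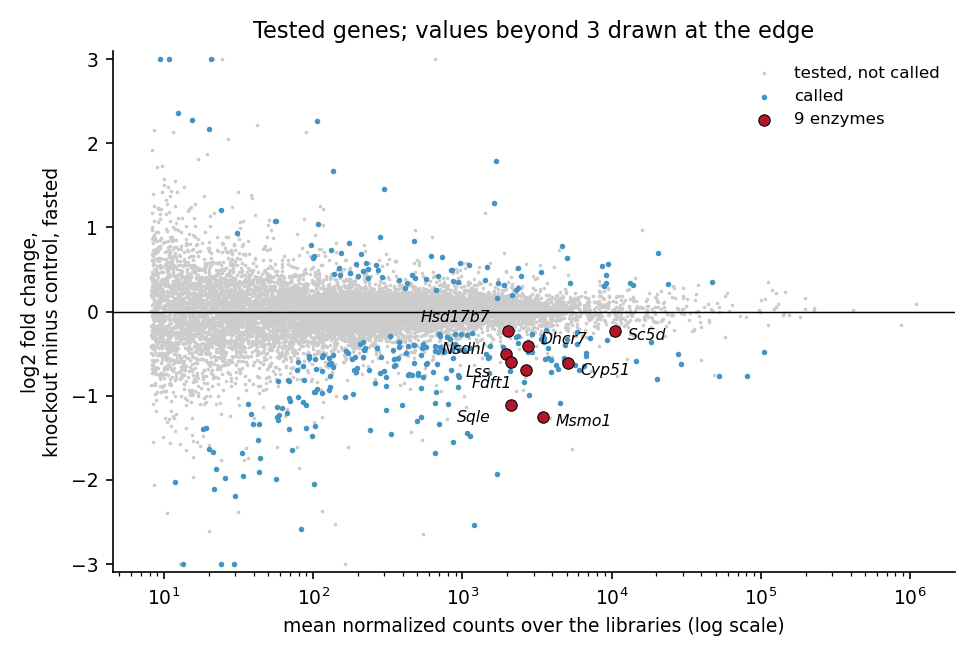
Log2 fold change (livers labelled knockout minus control, fasted) against the mean of normalized counts over the libraries on a log axis, for the 13335 tested genes, with values beyond 3 drawn at the edge. Blue points were called, grey points were not, and the 9 enzymes in red all lie below 0, at means between 1967 and 10615.

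All 9 are abundant liver RNAs. Their means ranged from 1967 to 10615 normalized counts, from the 91.0th to the 98.5th percentile of tested genes, and together made up 0.182% of all normalized counts. Per kilobase of annotated exon, Sc5d came first at 2181 normalized counts and Cyp51 next at 1156. Nsdhl, Fdft1, Msmo1 and Dhcr7 followed at 689.4, 628.4, 562.8 and 474.2 normalized counts per kilobase, then Hsd17b7 and Sqle at 395.2 and 381.8, and Lss came last at 197.0. Lss has the longest annotated exon total, 10787 bases, which counts exons of every transcript and so lowers its value per kilobase. These means run over all 15 libraries, fasted and refed, and no spread is given with them, so which neighbours in this order differ was not tested.

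The standard errors were small in absolute terms, from 0.12 to 0.20 on the log2 scale, yet large for genes of this abundance. In a comparison of 4 with 4 livers, each standard error implies a coefficient of variation between livers of one group. This was 19.6% for Msmo1, 18.8% for Sqle, 17.6% for Nsdhl, 16.4% for Cyp51, 16.3% for Hsd17b7, 15.3% for Lss, 14.4% for Fdft1, 12.2% for Dhcr7 and 11.4% for Sc5d. The tested genes closest in mean to each enzyme had medians between 7.63% and 9.10%. All 9 enzymes thus lay above the median of genes of like abundance, with between 67.9% and 94.8% of those genes less variable. Msmo1 and Sqle, with the lowest estimates, also had the largest implied spread, and Sc5d, with the least, was among those closest to no change. The others did not follow that order. Hsd17b7, at -0.23 like Sc5d, had a spread near that of Cyp51, and Nsdhl, not called, had more than Fdft1. The authors' model fitted this spread over all 15 libraries, so it also reflects refed livers.

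**Figure D4:**
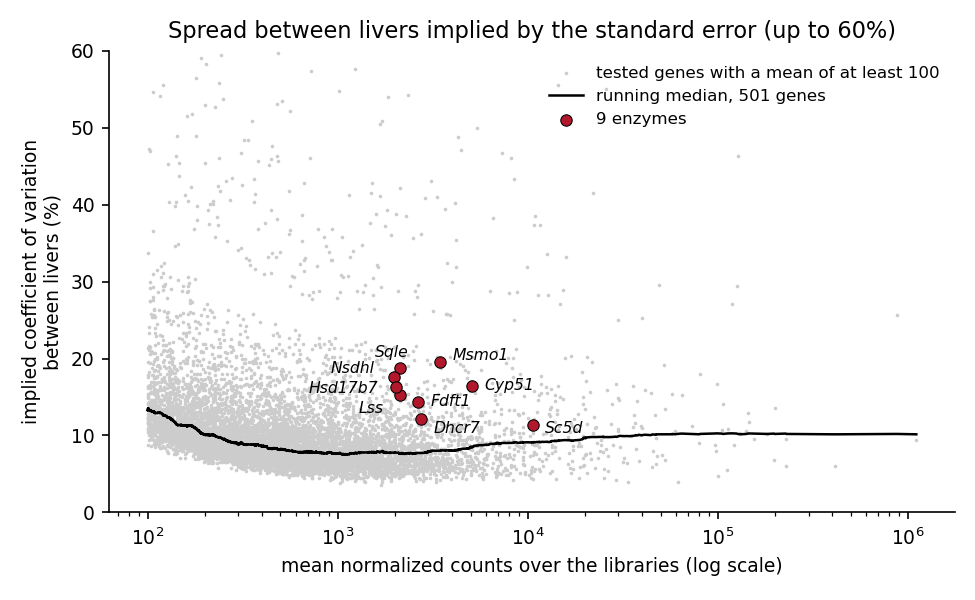
Coefficient of variation between livers, in percent, implied by each gene's standard error, against the mean of normalized counts on a log axis, for tested genes with a mean of at least 100 (grey; values above 60% are not drawn). The black line is the running median over genes of like mean, and the 9 enzymes in red lie above it, from 11.4% for Sc5d to 19.6% for Msmo1.

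Other genes of the same steps were checked from a list of 6, of which 5 were in the table and Faxdc2 was not analysed here. Of these 5, 0 were called by the DESeq2 test, against 2.19% of all tested genes, and 5 genes are too few to set 0 apart from that share. An unadjusted p under 0.05 in the lower direction was found for 2, against 6.21% of all tested genes. All 5 estimates were negative, with a median log2 fold change of -0.28. Erg28, a scaffold of the demethylation complex, had the lowest, -0.40 ± 0.13 (SE, the authors' deposited table) with an adjusted p of 0.0915 (DESeq2). The sterol reductase genes Lbr and Tm7sf2 stood at -0.33 ± 0.18 and -0.28 ± 0.11 (SE, the authors' deposited table). Ebp, the sterol isomerase, stood at -0.13 ± 0.09 (SE, the authors' deposited table). After the demethylation complex, Ebp, Sc5d and Dhcr7 were thus not called by the DESeq2 test, and of these Sc5d and Dhcr7 had an unadjusted p under 0.05.

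Upstream, in the mevalonate arm that supplies farnesyl diphosphate, 5 of 9 genes fell and 0 rose, with a median log2 fold change of -0.70. Over all tested genes, 1.60% were called lower and 0.585% higher. Those that fell were Fdps, Mvd, Mvk, Idi1 and Pmvk. Fdps, which makes the substrate of Fdft1, was the lowest at -1.46 ± 0.24 (SE, the authors' deposited table), with an adjusted p of 5.39e-07 (DESeq2). Hmgcs1, the synthase that makes HMG-CoA, was at -0.56 ± 0.29 (SE, the authors' deposited table) and missed the threshold, with an adjusted p of 0.450 (DESeq2). It was named after its value was seen. Its estimate was near that of Lss, with a standard error of 0.29 against 0.16, and its implied spread between livers was 28.3%, above that of each of the 9 enzymes.

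Among 9 genes of SREBP control, 3 fell, 0 rose and 6 were not called, and the median was 0.03. The shares over all tested genes were 1.60% lower and 0.585% higher. Srebf2, which encodes SREBP2, was at -0.46 ± 0.12 (SE, the authors' deposited table) with an adjusted p of 0.00685 (DESeq2). Insig1, which is itself a target of SREBP, was at -0.63 ± 0.19 (SE) and Srebf1 at -0.72 ± 0.21 (SE, the authors' deposited table), with adjusted p of 0.0421 and 0.0285 (DESeq2). Adjusted over every gene with a p, Insig1 and Srebf1 were no longer called, at 0.0784 and 0.0532, nor were they at a threshold of 0.01. With Holm's adjustment, the t distribution or a test against a change of at most 0.25, none of Srebf2, Insig1 and Srebf1 was called. The escort and protease genes Scap, Mbtps1 and Mbtps2 had log2 fold changes of -0.04 ± 0.08, 0.03 ± 0.06 and 0.08 ± 0.11 (SE, the authors' deposited table). Insig2, the other INSIG gene, was at 0.05 ± 0.21 (SE) there.

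Of 10 tested genes of sterol uptake and trafficking, 4 fell and 0 rose, with a median of -0.29. For this list and the next, the shares over all tested genes were 1.60% lower and 0.585% higher. Among those that fell, Stard4, a sterol transfer protein gene, was at -0.71 ± 0.12 (SE, the authors' deposited table), with an adjusted p of 4.07e-07 (DESeq2). Tmem97, a regulator of the cholesterol transporter NPC1, was at -0.43 ± 0.09 (SE, the authors' deposited table), with an adjusted p of 3.07e-04 (DESeq2). Both estimates lay within the range of the 9 enzymes. Of 5 genes of sterol esterification, 1 fell, Soat2, which encodes the hepatocyte enzyme that makes cholesteryl esters, at -0.56 ± 0.12 (SE, the authors' deposited table), and 0 rose. Their median was -0.05.

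Several of the sterol enzymes take electrons from shared donors, Cyp51 and Sqle from cytochrome P450 reductase and Msmo1 and Sc5d from cytochrome b5. Of 8 genes for such donors and helpers, 0 were called by the DESeq2 test, against 2.19% of all tested genes, and 8 are too few to set 0 apart from that share. An unadjusted p under 0.05 was found for 1 in each direction, against 11.4% of all tested genes in either direction. Cyb5r3 was the lower, at -0.27 ± 0.10 (SE), and Pgrmc1 the higher, at 0.21 ± 0.08 (SE, the authors' deposited table). The median log2 fold change was 0.05. Por, the reductase gene, was at 0.12 ± 0.20 (SE) and Cyb5a at 0.16 ± 0.12 (SE, the authors' deposited table). Marchf6, the ubiquitin ligase that degrades squalene epoxidase, was at -0.02 ± 0.08 (SE) there. The intervals of Cyb5a and Marchf6 ran from -0.08 to 0.39 and from -0.18 to 0.14, which hold no fall of the size seen for Sqle or Msmo1.

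**Figure D5:**
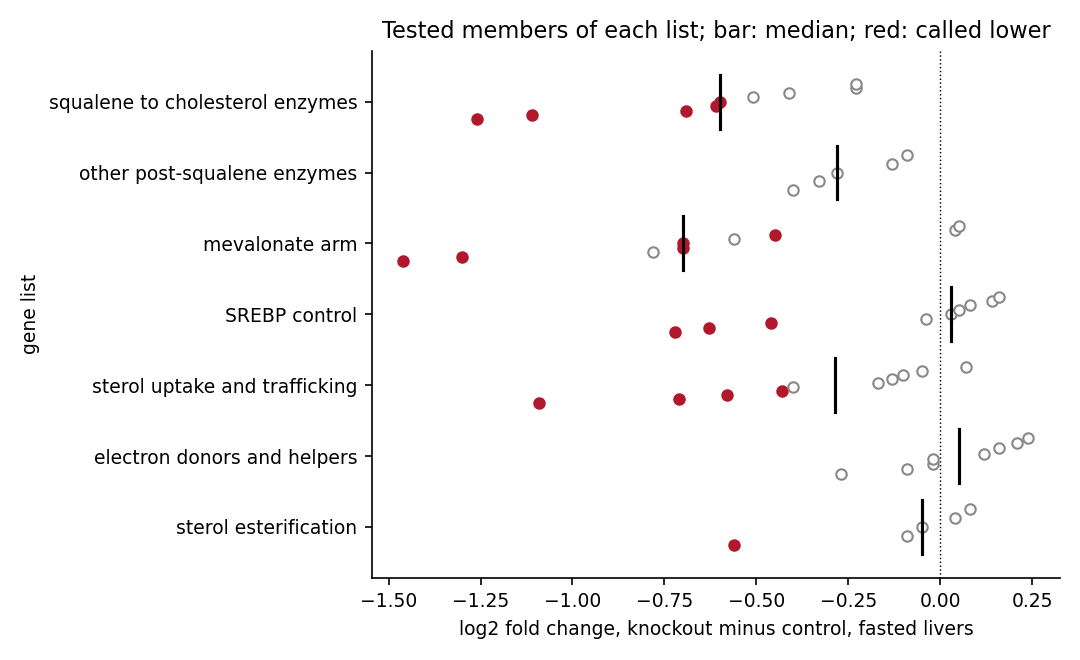
Log2 fold change (livers labelled knockout minus control, fasted) of the tested members of each gene list; red points were called lower, open grey points were not called, and the black bar is the list's median. The 9 enzymes have a median of -0.60, between the mevalonate arm at -0.70 and uptake and trafficking at -0.29, while electron donors have a median of 0.05.

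Within 250 kb of a member lay 73 other rows of the table, 39 of them tested, and by the DESeq2 test 0 of the 39 were called in either direction, against 2.19% of all tested genes, and 39 genes are too few to set 0 apart from that share. An unadjusted p under 0.05 was found for 2 in the lower and 1 in the higher direction, against 11.4% of all tested genes in either direction. A search of annotated mouse transcripts for stretches of at least 500 bases with at least 90% identity found 2 genes, both matched to Fdft1. They were Ctsb, through the overlap given above, and Gm6781, a processed pseudogene of 97.4% identity over 1249 bases. Gm6781 had a mean of 2.66 normalized counts, against 2656 for Fdft1, and was named after its value was seen.

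The tissue label was checked against cell type markers. Hepatocyte markers were the most abundant, from 2476 normalized counts per kilobase for Hnf4a to 472779 for Alb. The summed markers of Kupffer cells (6 genes), sinusoidal endothelium (5) and stellate cells (5) came to 491.2, 348.6 and 347.6 normalized counts per kilobase. Of the tested markers of these 3 cell types, 0 of 6, 0 of 5 and 0 of 5 were called by the DESeq2 test, against 2.19% of all tested genes. At an unadjusted p under 0.05 stood Clec4f, Clec4g and Lyve1, named after their values were seen, against 11.4% of all tested genes in either direction. Their directions differed, with log2 fold changes of -0.27 ± 0.13, 0.25 ± 0.12 and -0.71 ± 0.33 (SE, the authors' deposited table). All 6 Kupffer cell markers had negative estimates, with a median of -0.29, and their part in the fall of the sterol enzymes was not tested. Of the 6 hepatocyte markers 1 was called lower, Apoa1, against 1.60% of all tested genes, and their median was 0.09. Ttr, at 0.22 ± 0.11 (SE, the authors' deposited table), had an unadjusted p under 0.05 and was named after its value was seen. Summed markers of cholangiocytes, lymphocytes and steroidogenic tissue came to 57.47, 8.735 and 8.626 normalized counts per kilobase, and Cyp11b1 was not analysed here. By the DESeq2 test, 0 were called among the 3, 1 and 2 tested, against 2.19% of all tested genes. These are too few to set 0 apart from that share. Among these, the lymphocyte marker Cd3e had an unadjusted p under 0.05.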

How the data were processed

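Liver RNA of 15 mice in 4 groups was sequenced from KAPA stranded libraries, per the labels' protocols. FastQC, STAR 2.6.0c, mm10 and DESeq2 are named in the submitters' processing notes. For the counter, its strand setting and the annotation, the sources used here give nothing. The authors deposited 1 table of 24965 genes. Per the file headers it gives, for each gene, a mean signal (counts divided by size factors, averaged over libraries by the authors), the log2 fold change and its standard error, a Wald score, a p-value and an adjusted p-value. The score equals the fold change over its error, and the deposited adjusted p was rebuilt by Benjamini-Hochberg over 13335 genes. A further 11605 genes had a p-value without an adjusted one. The means sum to 1.80e+07 and relative size factors of the libraries lie between 0.912 and 1.11.

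The contrast was worked out from 166 genes with 1 read. Ridge-penalised negative binomial fits were made under 76 readings. Of these, 2 gave the deposited values within 1e-06, and the closest other differed by 4.37e-05. No model was refitted to counts. Near-identical transcripts were sought with BLAST. Intervals of 95% are normal and percentages of control are 2 to the power of the log2 fold change. Implied variation is the dispersion that the standard error gives for 4 against 4 libraries. Apart from the traits given at the opening, titles alone tell the mice apart. Each p-value sets an estimate against a standard error drawn from the spread between these samples.

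Members, lists and tests were chosen with earlier results of these data known. All 9 members could be named, with Gata4, up to 4 called genes per companion list, and any gene of the lists of other post-squalene enzymes, SREBP control and electron donors. Some genes that enter the counts are not reported here by name. Idi1 is beyond the 4 of the mevalonate arm and was named after its value was seen, as were the genes the text marks so. Flanking genes were named where they overlap a member, Neil2 being named after its value was seen. Coordinates and exon lengths are from GENCODE M21 (mm10), which held 24944 of the 24965 genes. Alternatives changed the genes adjusted over, the adjustment, the threshold, the null distribution, the null hypothesis and the centring. Python 3.11.15, pandas 2.3.3 and scipy 1.17.1 were used, and the tests were checked on simulated data.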

Additional observations from a re-analysis of the deposited data

How the results depend on the processing

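The table holds no values per liver, so leaving out single livers, refits, other size factors, filters on counts per liver and fits of the fasted livers alone were not run, and no symbol of a member stood on a further row. No paired analysis was possible because the file gives estimates by gene and nothing by liver. The 9 enzymes called lower numbered 5 as deposited and 3 with Holm's adjustment or a threshold of 0.01. They numbered 2 with a t distribution and 2 against a change of at most 0.25. In the other 7 alternatives they numbered 5 or 6, with 0 called higher in all 11. Companion pathway genes called lower, 13 as deposited, numbered 10 adjusted over every gene with a p, 9 at a threshold of 0.01, 5 with Holm's adjustment, 2 with the t distribution and 2 against 0.25. Srebf1, Insig1 and Idi1 were the 3 lost at the first of these, and Fdps and Stard4 were the 2 called at both of the last. Genes called lower over the whole table, 214 as deposited, numbered 60 with Holm's adjustment, 129 at 0.01, 31 with the t distribution and 37 against 0.25. Genes called higher, 78 as deposited, numbered 15, 38, 7 and 10 at those settings and 132 at a threshold of 0.10. By construction the threshold of 0.10 is looser than the deposited one and the others named here are stricter. Sqle and Msmo1 were called in all 11 alternatives, with adjusted p up to 0.0465 and 0.0357, and none of the 9 estimates changed sign.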
